A study of Homo sapiens with 12 samples.

Results

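The genes of the extracellular matrix and of bone mineral were followed in U2OS, an established human osteosarcoma line, across 4 groups of cytoplasmic RNA samples. The list holds 40 genes, chosen by name from matrix and bone biology but with earlier results of these data known. Each is read by the probe sets of an exon array that carry its symbol and no other. Of the 40 genes, 38 were among the 16883 genes that could be tested. LUM (lumican) had 10 probe sets with its symbol, all too dim to keep, and LOXL2 (a lysyl oxidase-like crosslinking enzyme) had 3, of which 2 were kept, below the minimum of 3, so these genes have no value. The 38 tested genes had 1403 probe sets, of which 1216 were kept.

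All samples came from U2OS cells stably expressing K294A, a form of the cytoplasmic capping enzyme that is known to be inactive. Induced cells had received doxycycline at 1 ug/ml for 24 h and uninduced cells had not. Cytoplasmic RNA was depleted of ribosomal RNA, and RNA of the Xrn1 groups was then digested outside the cell with Xrn1, which removes RNA with a 5' monophosphate from its start and leaves capped RNA. The 4 groups were uninduced untreated, uninduced Xrn1, induced untreated and induced Xrn1, with 3 arrays each. The labels call the arrays of a group biological replicates but name no separate cultures or clones, so p-values measure the spread between these samples, which may be technical. The design asks which RNAs lose signal to Xrn1 and whether that loss differs when K294A is induced.

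Bone matrix is built mainly of collagen I, a triple helix of chains encoded by COL1A1 and COL1A2, which is hydroxylated and folded in the endoplasmic reticulum, secreted, trimmed and crosslinked. Glycoproteins such as fibronectin, laminins and thrombospondin link these fibres to integrins on the cell, and metalloproteases and their inhibitors turn the matrix over. Mature osteoblasts add alkaline phosphatase, bone sialoprotein, osteocalcin and osteopontin, which take part in mineral deposition, whereas many osteosarcoma lines express these unevenly.

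Levels below are log2 array values, a change is a difference between group means on that log2 scale, and errors are SD over n = 3 arrays. A change passed the test when the adjusted p of limma, Benjamini-Hochberg over all 16883 genes, was under 0.05. The spread was pooled over genes (SD 0.418), which gives a change between a pair of groups a 95% interval of 0.67 to either side, and the 3 arrays per group limit the precision. The values are relative within an array, so that a higher value with Xrn1 need not be a gain of RNA. In bulk RNA, fewer cells with a transcript and less of it per cell cannot be told apart. Levels of different genes come from different probes and were not ranked against each other.

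The arrays differed in overall signal. Genes above a level of 6 numbered 760 to 1114 on the uninduced untreated arrays, 327 to 823 on those of induced untreated RNA and 110 to 298 on the 6 arrays with Xrn1. Across genes, 4 of the 12 arrays correlated best with an array of another group: induced untreated replicate 3 and uninduced untreated replicate 3 with each other, induced untreated replicate 2 with uninduced untreated replicate 1, and uninduced Xrn1 replicate 1 with induced Xrn1 replicate 2. Of 8 mesenchymal markers, 7 were expressed (vimentin, VIM, had a mean of 6.72, and NT5E was silent), and of 14 tested markers of blood, epithelial, liver, neural, muscle and endothelial cells, 6 passed the same bound, so that it is a rough split. The summed linear level of these 14 markers was 115 to 160 in the untreated and 121 to 165 in the Xrn1 arrays. Of these markers, 1 rose with Xrn1 in uninduced cells (all genes: 7.24%) and 4 in induced cells (all genes: 21.6%). RNGTT, the endogenous capping enzyme gene, had levels of 3.79 ± 0.89 in uninduced and 4.00 ± 0.67 in induced untreated RNA, and its change of 0.21 with induction did not pass (adjusted p = 0.685). The part of these differences between arrays in the results below was not tested beyond leaving arrays out and rescaling them.

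A gene was called expressed when its mean over the 12 arrays exceeded 3.22, the 95th percentile of the same mean over 44 olfactory receptor genes, and silent otherwise. That mean includes the Xrn1 arrays, so a gene that falls with Xrn1 can be called silent while higher in untreated RNA. By this bound 29 of the 38 genes were expressed and 9 were silent, compared with 9791 and 7092 of all genes tested. At the 99th percentile of 4.40, 20 of the 38 remained expressed, as did 2343 of the 16883 genes tested. COL3A1 (the fibrillar collagen III chain) lay just inside the lower bound at 3.41, and BGN (biglycan, a small proteoglycan) just outside at 3.20.

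**Figure D1:**
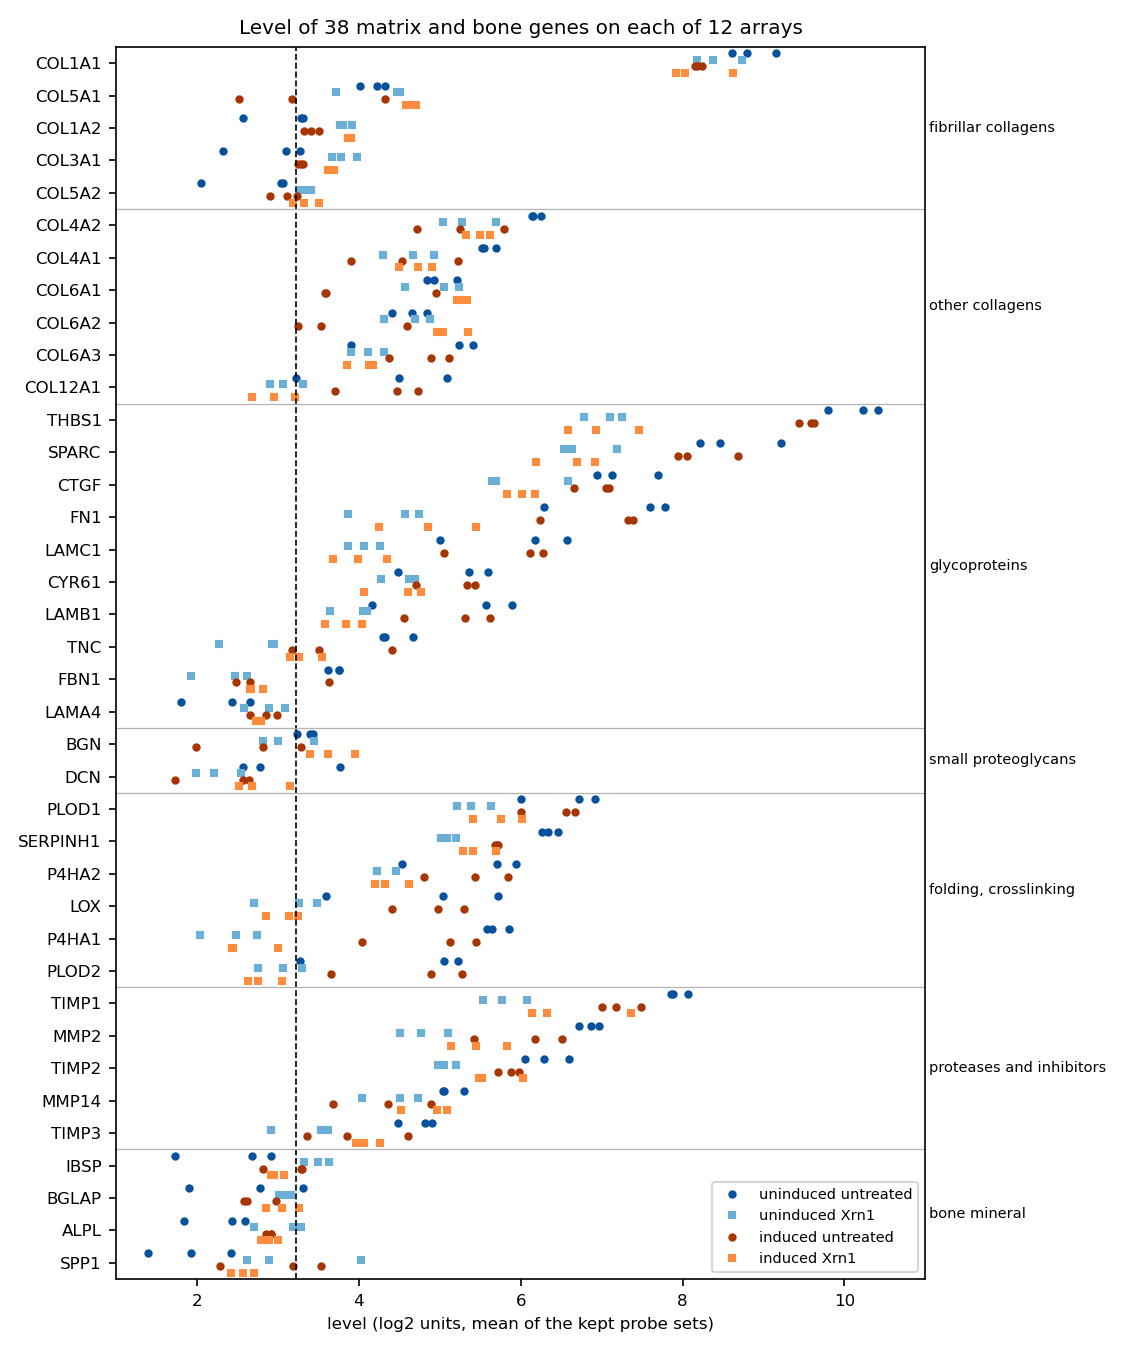
Level of each of the 38 genes on each array (log2 units, horizontal axis), grouped by role; circles are untreated and squares Xrn1 arrays, blue is uninduced and orange to brown induced, and the dashed line is the bound of 3.22 between silent and expressed. COL1A1 lies near 8 on every array, and the 4 bone mineral genes have means below the line.

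The expressed genes covered most of the steps of matrix assembly. COL1A1 had a mean of 8.42 over the 12 arrays and THBS1 (thrombospondin 1, an adhesive glycoprotein) 8.44. SPARC (osteonectin, a collagen-binding glycoprotein of bone) had 7.56, TIMP1 (an inhibitor of metalloproteases) 6.89 and CTGF (connective tissue growth factor, now CCN2) 6.54. All 6 tested genes of collagen folding and crosslinking were expressed, and so were all 5 proteases and inhibitors and all 6 collagens outside the fibrillar group. Of the 10 glycoproteins, FBN1 (fibrillin 1) and LAMA4 (a laminin alpha chain) were silent by their means over the 12 arrays. FBN1 fell with Xrn1 in uninduced cells, and the means of its kept probe sets ran from 2.04 to 7.19. Of the 5 fibrillar collagens COL5A2 was silent at 3.12. COL1A2, the partner chain of COL1A1, was at 3.54.

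All 4 bone mineral genes and both tested small proteoglycans were silent. ALPL (tissue-nonspecific alkaline phosphatase) had a mean of 2.78, BGLAP (osteocalcin) 2.88, IBSP (bone sialoprotein) 3.01 and SPP1 (osteopontin) 2.66. The highest mean of a kept probe set was 4.41 for ALPL, 3.86 for BGLAP, 6.43 for IBSP and 3.21 for SPP1. At least 1 probe set of ALPL, BGLAP and IBSP thus lay above the bound. BGN was at 3.20, although the means of its kept probe sets ran from 2.04 to 7.44. DCN (decorin) was at 2.59, from 3 kept of 19 probe sets. Of the transcription factors of the bone lineage, RUNX2, which starts osteoblast differentiation, was expressed at 3.46, and SP7 (osterix), which acts later, was silent at 2.97.

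On the deposited scale Xrn1 in uninduced cells lowered most of the expressed matrix genes, whereas after cyclic loess, described below, 9 of the 21 falls remained. Of the 38 genes, 21 were lower (all genes: 31.8%) and 3 higher (all genes: 7.24%), with a median change of -1.03 against -0.27 for all genes. Among the 29 expressed genes, 20 (69%) were lower, where 43.3% of all expressed genes were, and 1 was higher, where 4.53% were. Their median change was -1.23, against -0.59 for all expressed genes. These 29 genes were also brighter, with medians by array of 4.31 to 5.85 against 3.50 to 4.44 for all expressed genes. Here and below, the shares of all genes were not matched for level. Among the 9 silent genes, 1 was lower (all silent genes: 15.8%) and 2 were higher (all silent genes: 11%). The count of higher genes was 1 without either array of uninduced replicate 2, untreated or Xrn1, and 5 without induced untreated replicate 2 or 3.

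In induced cells fewer genes changed with Xrn1. Of the 38, 11 were lower (all genes: 17.8%) and 4 higher (all genes: 21.6%), with a median of -0.23 against 0.10 for all genes. Among expressed genes 11 (37.9%) were lower, where 25% of all expressed genes were, and 3 (10.3%) higher, where 22.6% were. Of the silent genes none was lower (all silent genes: 7.85%), and BGN was higher (all silent genes: 20.2%). At an unadjusted p under 0.05, 0 of 9 were lower as well (all genes, silent and expressed: 20.8%). All 11 genes that were lower in induced cells were also lower in uninduced cells, and 10 more passed as lower in uninduced cells alone; whether those differ between the states is tested further on. Without induced untreated replicate 2 only 2 genes were higher. Averaged over both states, 21 were lower (all genes: 29.8%) and 5 higher (all genes: 14.2%).

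**Figure D2:**
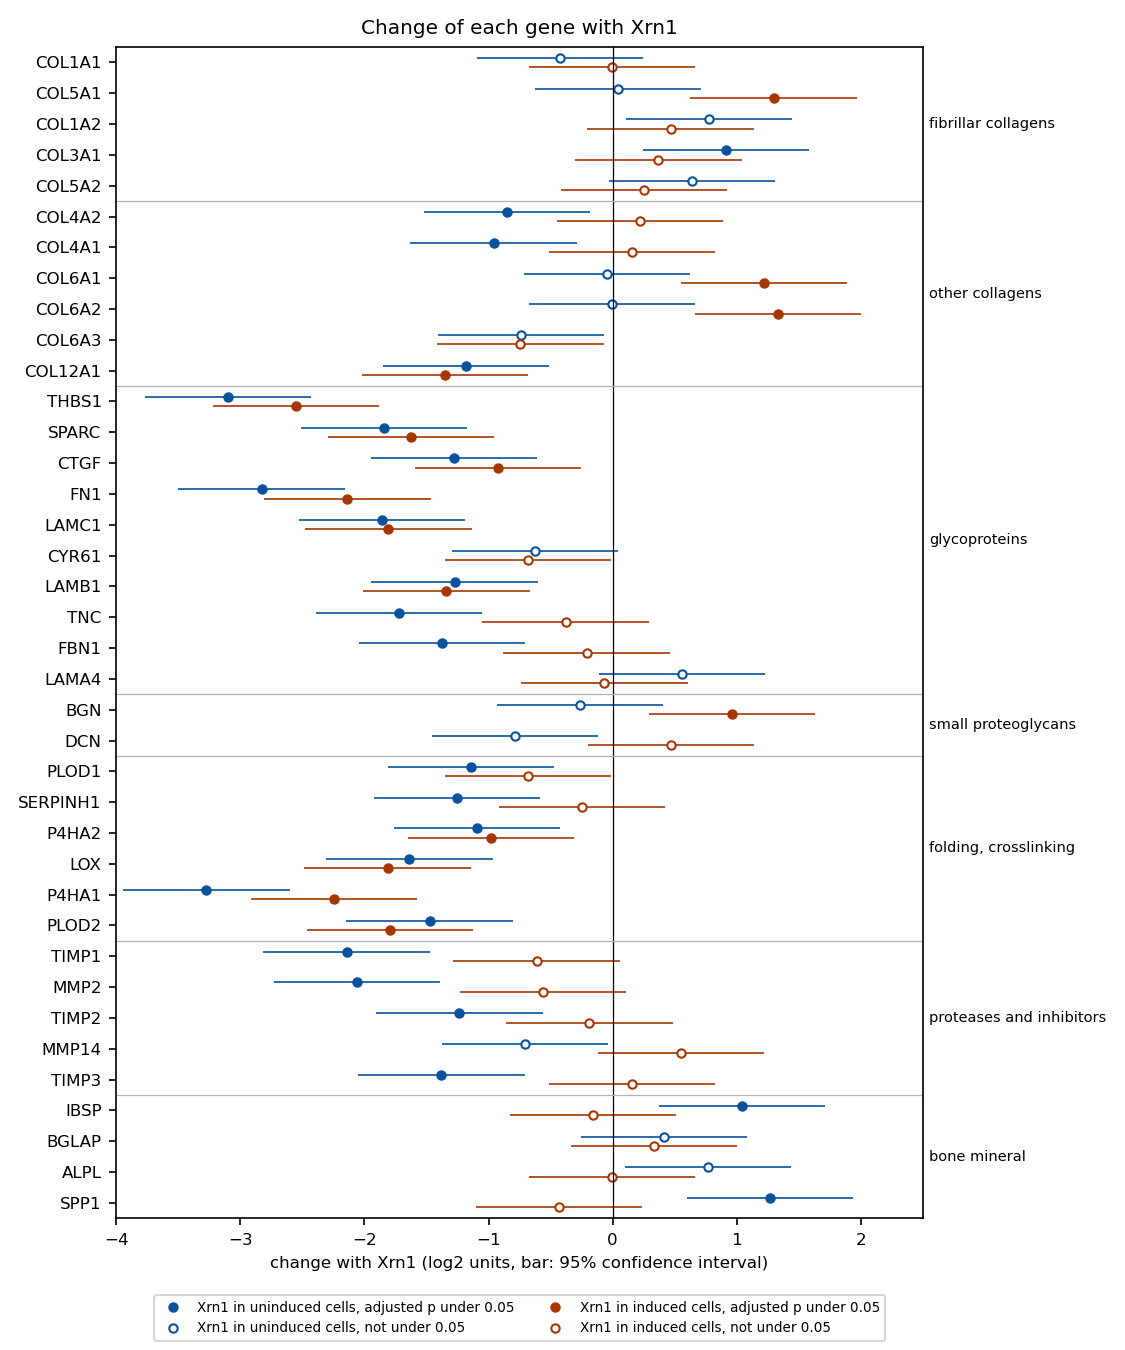
Change of each gene with Xrn1 (log2 units, horizontal axis) in uninduced (blue) and induced cells (brown), grouped by role; bars are 95% confidence intervals and filled points have an adjusted p under 0.05. On the deposited scale all 6 folding and crosslinking genes lie left of 0, from -3.27 to -0.25; after cyclic loess P4HA2, PLOD1 and SERPINH1 lie above 0 in uninduced, and PLOD1 and SERPINH1 in induced cells.

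How many of these falls passed depended on how the arrays were put on one scale. Centring each array on its median gene moved the median of all genes in uninduced cells from -0.27 to 0.09 and left 19 of the 21 falls. Cyclic loess, which removes differences between arrays that follow the level of a gene, left 9 of the 21 falls in uninduced cells (all genes: 21.9% lower) and turned the sign of 8, and 10 genes were then higher (all genes: 21.9%). The 9 that remained lower were FN1, FBN1, LAMC1, LOX, TIMP3, THBS1, TNC, P4HA1 and PLOD2. DCN became lower as well. In induced cells it left 8 of 11 falls (all genes: 21.9% lower), namely COL12A1, FN1, LAMB1, LAMC1, LOX, THBS1, P4HA1 and PLOD2. There 7 genes were higher (all genes: 23.4%), namely COL1A1, COL4A2, COL5A1, COL6A1, COL6A2, BGN and MMP14. Among genes that had not passed, COL1A1 moved far: its change was -0.43 in uninduced cells as deposited and 1.81 after cyclic loess. The median change of the 38 genes in uninduced cells was 0.20 after cyclic loess, against 0.07 for all genes.

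**Figure D3:**
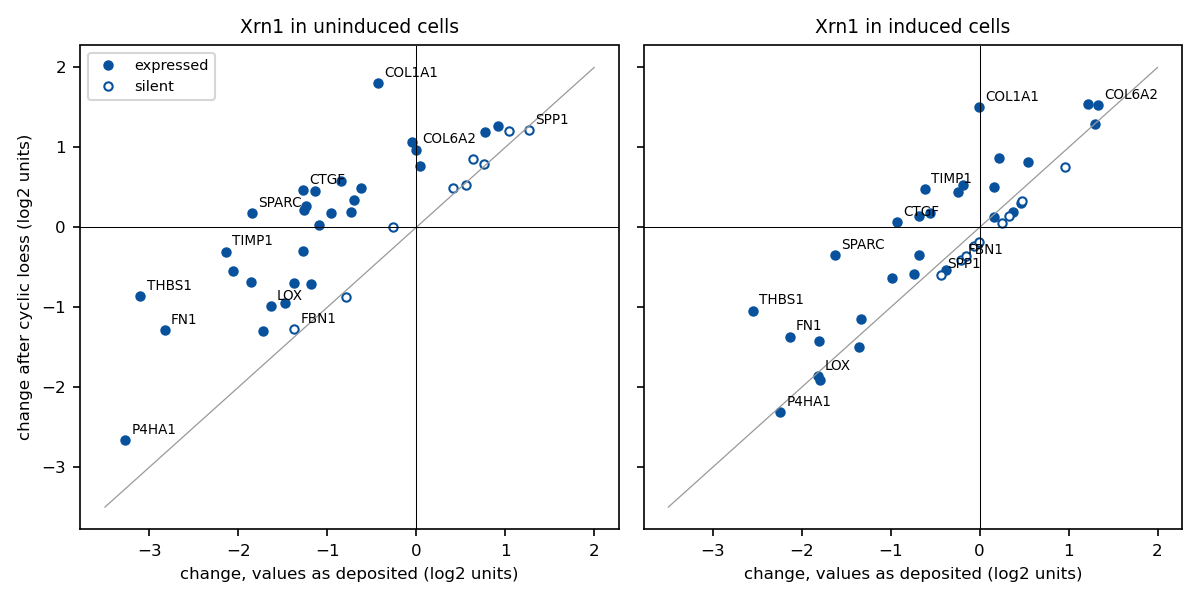
Change of each gene with Xrn1 on the deposited scale (horizontal axis, log2 units) against the change after cyclic loess (vertical axis, log2 units), in uninduced (left) and induced cells (right); filled points are expressed and open points silent genes, and the grey line marks equal values. P4HA1, THBS1, FN1 and LOX lie below 0 on both scales, whereas COL1A1 moves from -0.43 to 1.81 in uninduced cells.

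Most of the adhesive glycoproteins fell in uninduced cells. In uninduced cells 8 of 10 were lower (median -1.55, all genes: 31.8% lower) and in induced cells 6 of 10 (median -1.13, all genes: 17.8% lower). None was higher in either state (all genes: 7.24% and 21.6%). After cyclic loess SPARC, CTGF, CYR61 and LAMA4 had changes above 0 in uninduced cells, and CTGF in induced cells. THBS1 read 10.23, 10.42 and 9.80 in uninduced untreated RNA and 6.78, 7.26 and 7.11 after Xrn1. It read 9.58, 9.63 and 9.44 in induced untreated RNA and 6.93, 6.58 and 7.47 after Xrn1. Every Xrn1 array was thus below every untreated array, by a change of -3.10 (adjusted p = 1.25e-17) in uninduced and -2.55 (adjusted p = 2.32e-11) in induced cells. After cyclic loess its changes were -0.87 and -1.04, which both passed.

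FN1 encodes fibronectin, which bridges collagen and integrins. It read 7.60, 6.29 and 7.78 in uninduced untreated RNA and 3.87, 4.57 and 4.74 after Xrn1. In induced cells it read 6.23, 7.33 and 7.39 untreated and 4.85, 4.25 and 5.45 with Xrn1. The groups did not overlap in either state, and the changes were -2.83 (adjusted p = 7.26e-15) and -2.14 (adjusted p = 2.8e-08), or -1.28 and -1.37 after cyclic loess, where both passed.

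LAMC1, the gamma chain shared by most laminins of basement membranes, fell in both states. Its uninduced levels were 6.58, 5.00 and 6.18 untreated and 3.86, 4.26 and 4.06 with Xrn1, a change of -1.86 (adjusted p = 5.72e-07). Its induced levels were 5.05, 6.27 and 6.11 untreated and 4.34, 3.68 and 3.99 with Xrn1, a change of -1.81 (adjusted p = 3.67e-06). No groups overlapped, although uninduced untreated replicate 2 and induced untreated replicate 1 were more than 1 unit below the other arrays of their groups. After cyclic loess its changes were -0.69 and -1.42, which both passed. LAMB1, a beta chain of the same trimers, changed by -1.27 and -1.34, but its uninduced untreated replicate 2, at 4.16, was close to the Xrn1 array at 4.10, and with the spread of the gene itself neither change passed (adjusted p = 0.0669 and 0.0756); after cyclic loess its changes were -0.30, which did not pass, and -1.14, which did.

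SPARC read 9.22, 8.21 and 8.46 in uninduced untreated RNA against 6.54, 7.19 and 6.64 with Xrn1. It read 7.94, 8.69 and 8.05 in induced untreated RNA against 6.69, 6.19 and 6.92. The groups stood apart in both states and the average change was -1.73 (adjusted p = 1.19e-11), but after cyclic loess that average was -0.08 and did not pass. CTGF, a matricellular growth modulator, changed by -1.28 and -0.93, and after cyclic loess by 0.47 and 0.07. Its fall in induced cells did not pass without any 1 of induced untreated replicates 1 (-0.86) and 2 (-0.85) or induced Xrn1 replicates 1 (-0.93) and 2 (-0.84).

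TNC (tenascin C, a glycoprotein of remodelled tissue) and FBN1 (the microfibril protein) were lower in uninduced cells, by -1.72 (adjusted p = 4.11e-06) and -1.37 (adjusted p = 0.00032). Both calls held under all 25 alternatives. In induced cells the changes were -0.38 and -0.21 and did not pass. CYR61 (now CCN1, a relative of CTGF) changed by -0.62 and -0.68, which passed only as an average over both states (-0.65, adjusted p = 0.0199), and not without induced Xrn1 replicate 2 (-0.55), uninduced untreated replicate 1 (-0.54) or 3 (-0.60), or uninduced Xrn1 replicate 1 (-0.59). After cyclic loess that average was 0.07 and did not pass. LAMA4 had 0.56 and -0.07, neither of which passed.

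Genes of collagen folding and crosslinking were lower in uninduced cells, 6 of 6 (median -1.37, all genes: 31.8% lower), though P4HA2, PLOD1 and SERPINH1 had changes above 0 after cyclic loess. In induced cells 4 of 6 were lower (median -1.39, all genes: 17.8% lower). P4HA1, a catalytic subunit of the prolyl 4-hydroxylase that stabilises the triple helix, fell in both states. It read 5.85, 5.64 and 5.58 untreated and 2.49, 2.03 and 2.74 with Xrn1, a change of -3.27 (adjusted p = 1.92e-19). In induced cells it read 4.04, 5.44 and 5.13 untreated and 3.01, 2.44 and 2.44 with Xrn1, a change of -2.25 (adjusted p = 4.72e-09). The groups did not overlap, and with Xrn1 the gene was below the bound of 3.22 on all 6 arrays, so that the background of the arrays limits the size of the fall that could be measured. After cyclic loess the changes were -2.66 and -2.32, which both passed.

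LOX, the lysyl oxidase that starts collagen crosslinks, and PLOD2, the hydroxylase that prepares telopeptide lysines for them, also fell in both states. LOX read 5.72, 3.59 and 5.04 in uninduced untreated RNA and 2.70, 3.48 and 3.26 with Xrn1. It read 4.40, 5.30 and 4.97 in induced untreated RNA and 3.25, 2.86 and 3.13 with Xrn1. Uninduced untreated replicate 2, at 3.59, was close to the highest Xrn1 array at 3.48, no groups overlapped, and the changes were -1.64 (adjusted p = 1.25e-05) and -1.81 (adjusted p = 3.33e-06).

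PLOD2 read 5.23, 3.27 and 5.05 in uninduced untreated RNA and 2.76, 3.30 and 3.07 with Xrn1, so that uninduced untreated replicate 2 lay inside the Xrn1 range. It read 3.66, 5.27 and 4.89 in induced untreated RNA and 3.05, 2.63 and 2.75 with Xrn1, where the groups stood apart. The changes were -1.48 (adjusted p = 9.67e-05) and -1.80 (adjusted p = 4.14e-06). With the spread of each gene alone, the adjusted p of PLOD2 was 0.086 and 0.0675, and that of LOX 0.0434 and 0.0579. After cyclic loess the changes of PLOD2 were -0.95 and -1.92 and those of LOX -0.98 and -1.86, which all passed.

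The other 3 genes of the group changed less. P4HA2, the alternative hydroxylase subunit, changed by -1.10 and -0.98, and both falls depended on the arrays: the first did not pass without uninduced untreated replicate 1 (-0.82), and the second did not pass without induced untreated replicate 2 (-0.74), induced Xrn1 replicate 2 (-0.89) or induced Xrn1 replicate 3 (-0.95). PLOD1, which hydroxylates helical lysines, changed by -1.14 and -0.68, and SERPINH1 (HSP47, the collagen chaperone) by -1.26 and -0.25; only the uninduced changes passed. After cyclic loess the uninduced changes of these 3 genes were 0.03, 0.46 and 0.21.

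Proteases and inhibitors fell in uninduced cells, 4 of 5 (median -1.38, all genes: 31.8% lower), with TIMP2 at 0.27 and MMP14 at 0.34 after cyclic loess. In induced cells 0 of 5 passed by limma (median -0.19, all genes: 17.8% lower and 21.6% higher). At an unadjusted p under 0.05 there were 0 as well (all genes: 20.8% lower and 26.9% higher). After cyclic loess MMP14 was higher (0.82, adjusted p = 0.0113). TIMP1 read 7.86, 8.07 and 7.88 in uninduced untreated RNA and 5.53, 5.76 and 6.08 with Xrn1, groups that lay far apart (change -2.14, adjusted p = 5.68e-09). In induced cells it read 7.01, 7.49 and 7.18 untreated and 6.33, 6.14 and 7.36 with Xrn1, where replicate 3 lay inside the untreated range (change -0.61, adjusted p = 0.141).

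MMP2 (gelatinase A) read 6.97, 6.87 and 6.73 in uninduced untreated RNA and 4.77, 4.51 and 5.10 with Xrn1. It read 5.42, 6.51 and 6.17 in induced untreated RNA and 5.45, 5.14 and 5.83 with Xrn1. The uninduced groups were separate and the induced groups overlapped, with changes of -2.06 (adjusted p = 2.24e-08) and -0.56 (adjusted p = 0.184).

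TIMP3, an inhibitor that binds to the matrix, read 4.82, 4.48 and 4.90 in uninduced untreated RNA and 3.61, 2.91 and 3.53 with Xrn1. It read 3.35, 3.85 and 4.60 in induced untreated RNA and 4.07, 3.96 and 4.26 with Xrn1. The uninduced groups were separate, and induced untreated RNA spread to both sides of the Xrn1 arrays, with changes of -1.38 (adjusted p = 0.000297) and 0.16 (adjusted p = 0.755). TIMP2, which also helps activate MMP2, changed by -1.23 and -0.19, and MMP14, the membrane protease that cleaves pro-MMP2, by -0.70 and 0.55; of these 4 changes only the first passed. After cyclic loess the uninduced changes of TIMP1 and MMP2 were -0.31 and -0.54 and no longer passed.

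Of the fibrillar collagens, 0 of 5 were lower by limma in either state (all genes: 31.8% in uninduced and 17.8% in induced cells). Also at an unadjusted p under 0.05, 0 were lower (all genes: 35.6% and 20.8%). A set of 5 genes is small beside these shares. After cyclic loess all 5 were higher in uninduced and COL1A1 and COL5A1 in induced cells. COL1A1 was at 8.85 ± 0.28 in uninduced untreated RNA and 8.43 ± 0.28 with Xrn1, and at 8.19 ± 0.05 and 8.19 ± 0.38 in induced cells. Its changes were -0.43 (95% interval -1.09 to 0.24, adjusted p = 0.336) and 0.00 (-0.67 to 0.67, adjusted p = 0.996), but 1.81 and 1.5 after cyclic loess, both higher. The other chains were near or below the bound between silent and expressed, apart from COL5A1.

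COL3A1 rose with Xrn1 in uninduced cells (0.91, adjusted p = 0.0227), from 3.10, 2.32 and 3.27 to 3.67, 3.97 and 3.78. The rise did not pass when uninduced untreated replicate 2 (0.63) was left out, or replicate 2 (0.83) or 3 (0.93) of uninduced Xrn1, nor with the median of the probe sets (0.89). COL1A2 changed by 0.77 and 0.47 and passed only as an average (0.62, adjusted p = 0.0272), which did not hold without any 1 of the 3 induced Xrn1 arrays (0.61 to 0.62) or uninduced Xrn1 replicate 3 (0.64). COL5A2 had 0.64 and 0.26, neither of which passed. COL5A1, which nucleates collagen fibrils, changed by 0.05 in uninduced cells and rose by 1.30 in induced cells (adjusted p = 0.00125), but not without induced untreated replicate 2 (0.89); after cyclic loess it was higher in both states, by 0.77 and 1.30.

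The collagens outside the fibrillar group split by chain. COL12A1, a fibril-associated collagen, fell in both states (-1.18 and -1.35); in uninduced cells the fall did not pass without uninduced untreated replicate 1 (-0.77). The collagen IV chains COL4A1 and COL4A2, the network of basement membranes, fell in uninduced cells by -0.96 and -0.85 (0.17 and 0.58 after cyclic loess) and had 0.16 and 0.22 in induced cells. The fall of COL4A1 did not pass without uninduced untreated replicate 1 (-0.91) or uninduced Xrn1 replicate 2 (-0.79), and that of COL4A2 without any 1 of 6 arrays (-0.87 to -0.70).

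Of the beaded-filament collagen VI chains, COL6A2 read 4.41, 4.66 and 4.84 in uninduced untreated RNA and 4.70, 4.31 and 4.88 with Xrn1, groups that overlapped. In induced cells it read 3.54, 3.24 and 4.59 untreated and 5.04, 4.97 and 5.35 with Xrn1, where the groups stood apart. The changes were -0.01 (adjusted p = 0.989) and 1.33 (adjusted p = 0.000924), and the rise in induced cells held under all 25 alternatives. COL6A1 gave -0.04 and 1.22 (adjusted p = 0.00249), the latter not passing with its own spread (adjusted p = 0.0612). After cyclic loess both were higher in uninduced cells as well, COL6A2 by 0.97 (adjusted p = 0.00645) and COL6A1 by 1.06 (adjusted p = 0.0035). Both were low on induced untreated replicates 1 and 2, where COL6A1 read 3.60 and 3.58, and on replicate 3, at 4.95, COL6A1 was within the uninduced untreated range of 4.85 to 5.21. COL6A3 changed by -0.74 in each state, which passed only as an average (-0.74, adjusted p = 0.00741), and not without uninduced untreated replicate 1 (-0.60); after cyclic loess the average was -0.20 and did not pass.

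Chains that assemble into 1 molecule were also compared within each array as a difference of levels, which a shift common to both genes leaves alone; these 7 pairs were chosen after the values had been seen. COL6A1 minus COL6A3 went from -0.75 ± 0.57 untreated to 1.21 ± 0.17 with Xrn1 in induced cells, a difference of 1.96 between groups that did not overlap (2-sided exact permutation p = 0.1, the smallest that 3 against 3 arrays allow, adjusted over 7 pairs 0.175). In uninduced cells the difference was 0.69 (p = 0.2 by the same exact test). COL6A1 minus COL6A2 moved by -0.04 and -0.11, and COL4A1 minus COL4A2 by -0.11 and -0.06, within the spread of their arrays. COL1A1 minus COL1A2 moved by -1.20 (p = 0.1) and -0.47 (p = 0.2, exact permutation). LAMB1 minus LAMC1 moved by 0.58 and 0.47 (p = 0.1 each, exact permutation), with no value able to pass 0.05 in this design. A shift that follows level need not cancel between genes of unequal level, such as COL1A1 and COL1A2. After cyclic loess COL1A1 changed by 1.81 and COL1A2 by 1.19 in uninduced cells, and by 1.5 and 0.31 in induced cells. The order of their changes was thus reversed on that scale. For COL6A1 against COL6A3 and LAMB1 against LAMC1 the order was kept in both states.

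Neither small proteoglycan passed in uninduced cells, where BGN changed by -0.26 and DCN by -0.79, but after cyclic loess DCN was lower (-0.87, adjusted p = 0.0297). BGN, which binds collagen and growth factors, read 2.82, 1.99 and 3.28 in induced untreated RNA and 3.39, 3.62 and 3.95 with Xrn1, a rise of 0.96 (adjusted p = 0.0177). The highest untreated array, at 3.28, was close to the lowest Xrn1 array at 3.39, and the rise did not pass without induced untreated replicate 2 (0.60), induced Xrn1 replicate 2 (0.97) or induced Xrn1 replicate 3 (0.81). DCN had 0.47 in induced cells and did not pass.

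The bone mineral genes were silent by their means over the 12 arrays, and on the deposited scale 2 of 4, SPP1 and IBSP, rose with Xrn1 in uninduced cells (all silent genes: 11%). SPP1 read 1.92, 1.39 and 2.42 in uninduced untreated RNA and 2.62, 4.02 and 2.89 with Xrn1. In induced cells it read 3.53, 3.18 and 2.28 untreated and 2.70, 2.57 and 2.42 with Xrn1. Its rise of 1.27 in uninduced cells passed (adjusted p = 0.001), but not without uninduced Xrn1 replicate 2 (0.84), the only array of the 12 above 3.53, nor with its own spread (adjusted p = 0.0673).

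IBSP read 2.68, 1.72 and 2.92 in uninduced untreated RNA and 3.33, 3.63 and 3.50 with Xrn1. It read 3.28, 3.30 and 2.82 in induced untreated RNA and 2.91, 2.95 and 3.07 with Xrn1. The rise of 1.04 in uninduced cells passed (adjusted p = 0.0081), and not without uninduced untreated replicate 2 (0.69). On that array the silent members, IBSP among them, had a median of 1.90, against 2.70 to 3.09 on the other 11. All silent genes had a median of 2.54 there, against 2.61 to 3.06 on the other 11.

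ALPL read 2.43, 1.83 and 2.60 in uninduced untreated RNA and 2.70, 3.28 and 3.18 with Xrn1. Its induced levels lay between 2.78 and 3.00 on all 6 arrays. BGLAP read 2.78, 1.90 and 3.31 in uninduced untreated RNA and 3.16, 3.06 and 3.01 with Xrn1, and its induced levels were 2.98, 2.57 and 2.61 untreated and 2.86, 3.25 and 3.05 with Xrn1. The changes of ALPL were 0.77 and -0.01 and those of BGLAP 0.41 and 0.33, and none passed as deposited. After cyclic loess ALPL was higher in uninduced cells (0.79, adjusted p = 0.0135 by limma), as were SPP1 (1.22) and IBSP (1.20), but not BGLAP (0.49). With arrays centred on the median gene all 4 mineral genes were higher there. The share of all genes after cyclic loess is given above. For all 4 mineral genes the lowest of the 12 values was on uninduced untreated replicate 2.

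The change with Xrn1 was compared between the states as their difference, induced minus uninduced. It passed as higher, meaning less fall or more rise in induced cells, for 9 of the 38 genes (all genes: 20.6%) and as lower for 1 (all genes: 1.23%), with a median of 0.44 against 0.70 for all genes. Among expressed genes 8 (27.6%) were higher, where 25.6% of all expressed genes were, and 0 lower (all expressed genes: 0.133%). At an unadjusted p under 0.05, 0 expressed members were lower as well (all genes, silent and expressed: 4.06%). Among silent genes DCN was higher (all silent genes: 13.8%) and SPP1 lower (all silent genes: 2.75%). The share of matrix genes was thus near that of all genes.

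The largest were TIMP3 (1.54, adjusted p = 0.0247), TIMP1 (1.53, adjusted p = 0.025) and MMP2 (1.5, adjusted p = 0.0264), then TNC (1.34) and COL6A2 (1.34). TNC read 4.30, 4.33 and 4.67 in uninduced untreated RNA and 2.95, 2.27 and 2.92 with Xrn1, but 3.17, 3.51 and 4.41 in induced untreated RNA and 3.26, 3.15 and 3.54 with Xrn1. In group means the induced level was lower untreated (-0.74, adjusted p = 0.136 by limma) and higher with Xrn1 (0.60, adjusted p = 0.534), and neither change passed. The medians of all genes for these changes were -0.35 and 0.28. Induced untreated replicate 3, at 4.41, lay inside the uninduced untreated range. COL5A1, COL6A1, DCN and MMP14 lay between 1.25 and 1.26, and SPP1 was at -1.70 (adjusted p = 0.0169). None of the 9 rises passed with arrays centred on the median gene or after cyclic loess, and none of the 10 genes with its own spread (adjusted p 0.0925 to 0.156). None of the 9 was higher without induced untreated replicate 1 or induced Xrn1 replicate 1 or 3, each left out alone. The same held without uninduced Xrn1 replicate 2 or uninduced untreated replicate 3. Without replicate 2 of induced untreated, induced Xrn1 or uninduced untreated RNA, or replicate 3 of uninduced Xrn1, 3 or 4 genes were higher. Without induced untreated replicate 3, 15 were. The shares of all genes in these fits are not given here, so the counts cannot be read as particular to the matrix genes.

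**Figure D4:**
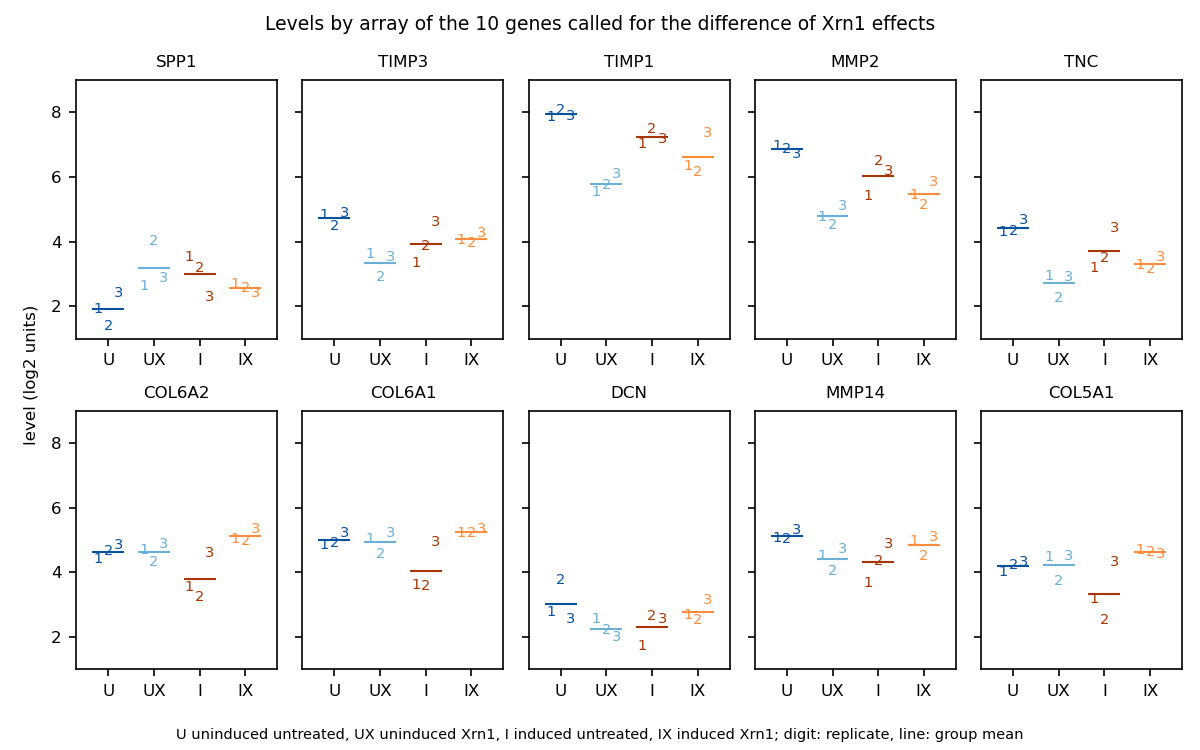
Levels by array (log2 units, vertical axis) of the 10 genes for which the difference of Xrn1 effects, induced minus uninduced, passed on the deposited scale. Digits are replicates and lines group means. None of the 9 positive differences passed with centring or cyclic loess, and none of the 10 genes with its own spread. Induced untreated replicates 1 and 2 lie below replicate 3 for COL6A1, COL6A2 and COL5A1, and replicate 3 is near the uninduced untreated arrays.

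Induction alone changed no matrix gene past the threshold. Without Xrn1, 0 were lower (all genes: 0.0296%) and 0 higher (all genes: 0.0118%) by limma, where 13 and 2 had an unadjusted p under 0.05 (all genes: 27.2% and 3.56%). The median was -0.36, against -0.35 for all genes, and the changes ran from -1.04 (COL4A1, 95% interval -1.71 to -0.37) to 1.09 (SPP1, 0.42 to 1.76). With Xrn1, 0 were lower (all genes: 0.00592%) and 0 higher (all genes: 0.0533%), where 0 and 3 had an unadjusted p under 0.05 (all genes: 0.426% and 8.66%); the largest was TIMP1 at 0.82 (0.15 to 1.49). THBS1 had -0.60 and -0.05, COL1A1 -0.66 and -0.24 and FN1 -0.24 and 0.45.

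The count of 0 without Xrn1 rested on induced untreated replicate 3. Without that array 12 matrix genes were lower (all genes: 37.9%) and 2 higher (all genes: 3.06%), with COL6A1 at -1.41, COL4A1 at -1.37 and COL5A1 at -1.34, and with SPP1 at 1.45 and IBSP at 0.85 higher. The 12 lower genes were COL6A1, COL4A1, COL5A1, COL6A2, COL4A2, FBN1, TIMP3, MMP14, TNC, BGN, P4HA1 and MMP2. Without any other single array the counts stayed at 0. In a fit of the Xrn1 groups alone, TIMP1 (0.82, adjusted p = 0.0268) and TIMP3 (0.74) were higher with induction.

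Single probe sets, most of which read 1 exon or part of 1, gave the changes within each gene; their positions in the transcript were not used here. Of the 1216 probe sets, 403 were lower with Xrn1 in uninduced cells (33.1%, all probe sets: 10.8%) and 44 higher (all probe sets: 7.54%), and 233 were lower in induced cells (19.2%, all probe sets: 5.52%) and 82 higher (all probe sets: 6.89%). The background here includes the many probe sets that lie outside named genes. THBS1 was lower in 25 of 27 probe sets in both states. P4HA1 was lower in 17 and 13 of 18, FN1 in 57 and 49 of 68, and LAMC1 in 21 of 35 in both states.

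In 5 other genes a smaller share of the probe sets passed in at least 1 state. COL1A1 had 6 of 60 probe sets lower and 0 higher in uninduced cells, and in induced cells its brighter 30 probe sets changed by -0.45 and its dimmer 30 by 0.44. COL6A3 had 19 of 59 lower and 3 higher in uninduced cells, with changes from -4.12 to 1.73. COL5A1 had 28 of 73 higher in induced cells and 1 lower, and COL6A2 15 of 50 higher and 0 lower, and TNC had 26 of 36 lower in uninduced but 2 in induced cells.

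**Figure D5:**
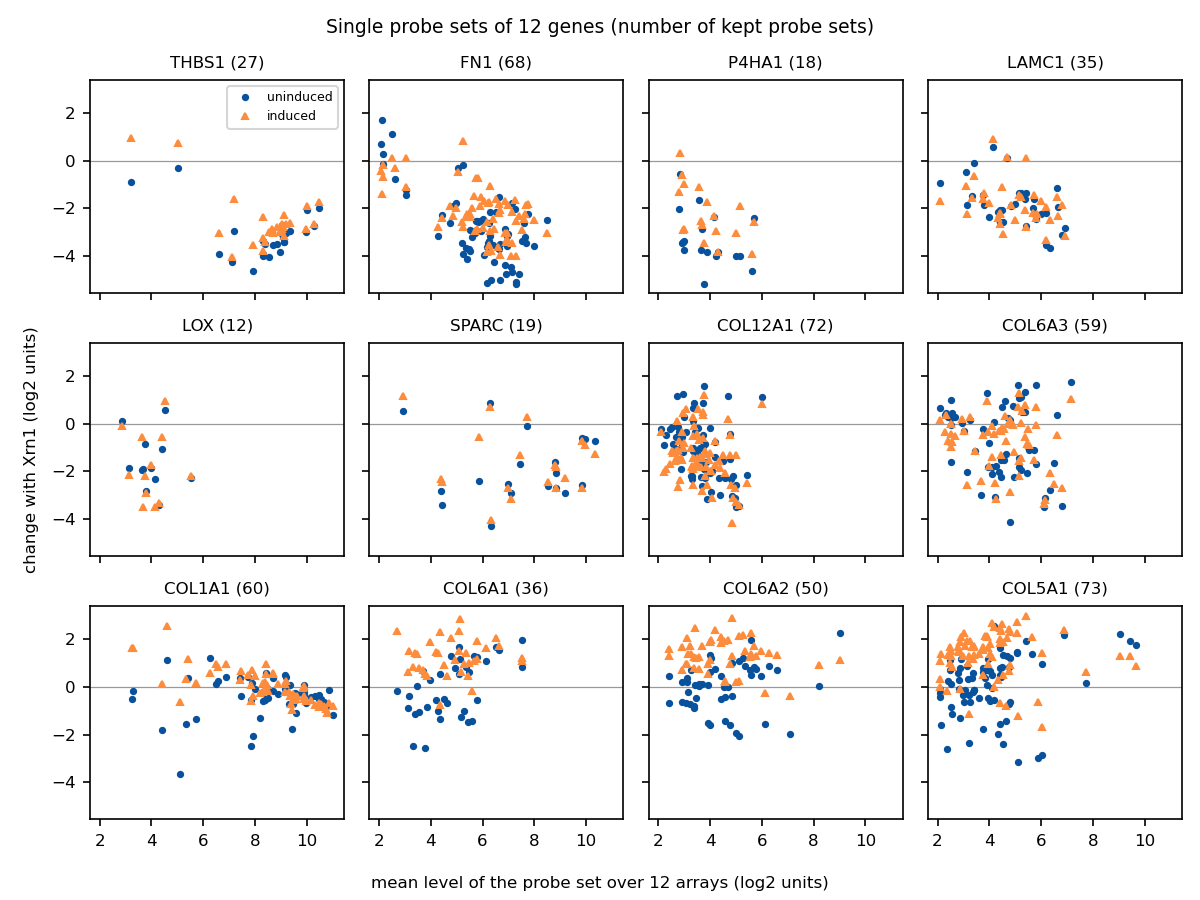
Change of single probe sets with Xrn1 (vertical axis, log2 units) against their mean level over the 12 arrays (horizontal axis, log2 units) for 12 genes, in uninduced (circles) and induced cells (triangles). Nearly all probe sets of THBS1 lie below 0 in both states (25 of 27 passed as lower), whereas those of COL6A3 spread from -4.12 to 1.73 in uninduced cells.

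Related genes outside the list gave a comparison. Of 36 other secreted matrix genes, 7 were lower (all genes: 31.8%) and 6 higher (all genes: 7.24%) with Xrn1 in uninduced cells (median 0.12). With Xrn1 in induced cells 2 were lower (all genes: 17.8%) and 10 higher (all genes: 21.6%), with a median of 0.41. After cyclic loess these were 4 and 18, and 2 and 13. For these lists the shares of all genes after cyclic loess are those given above. The microfibril gene MFAP5 (-2.19), FBLN5 (fibulin 5, -1.70) and FBN2 (fibrillin 2, -1.64) led in uninduced cells. In induced cells they were FBN2 (-1.66) and the minor fibrillar collagens COL5A3 (1.58) and COL27A1 (1.46).

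Of 25 other processing genes, 11 were lower (all genes: 31.8%) and 0 higher (all genes: 7.24%) in uninduced cells. The induced counts were 7 lower (all genes: 17.8%) and 5 higher (all genes: 21.6%). After cyclic loess 3 were lower and 3 higher, and 5 and 6. ADAM10, a sheddase, had -3.26 and -2.35. P4HB, the partner subunit of P4HA1 in prolyl 4-hydroxylase, had -2.37 in uninduced cells, and PPIB, the cyclophilin that helps fold collagen, had -2.27, which became -0.19 and -0.32 after cyclic loess and no longer passed. In induced cells ADAM17 was lower (-1.74) and the collagenase MMP1 higher (1.55).

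Of 19 matrix receptors, 11 were lower (all genes: 31.8%) and 1 higher (all genes: 7.24%) in uninduced cells (median -1.23). The induced counts were 9 lower (all genes: 17.8%) and 1 higher (all genes: 21.6%), with a median of -0.74. After cyclic loess 7 were lower in each state, with 4 and 2 higher. ITGB1, the common beta chain of collagen, laminin and fibronectin receptors, had -3.28 and -2.79, and ITGAV had -2.69 and -2.73. CD44, the hyaluronan receptor, had -2.60 in uninduced and -0.88 in induced cells, and the difference between those effects passed as deposited (1.71, adjusted p = 0.0167) but not after cyclic loess (0.93).

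Of 20 bone lineage genes, 6 were lower (all genes: 31.8%) and 4 higher (all genes: 7.24%) in uninduced cells. The induced counts were 4 lower (all genes: 17.8%) and 4 higher (all genes: 21.6%). After cyclic loess these were 3 and 5, and 6 and 4. The BMP receptors BMPR1A (-3.97 and -3.20) and BMPR2 (-2.20 and -2.19) fell in both states. TNFRSF11B (osteoprotegerin, the decoy receptor that restrains osteoclasts) had -2.12 in uninduced cells, and PHOSPHO1, a phosphatase of mineralisation, rose by 1.31 in induced cells.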

How the data were processed

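The 12 exon arrays of U2OS cytoplasmic RNA were read as deposited: log2 probe set values that the authors made with RMA in oligo, per the submitters' processing notes. No version is given in the sources used here, nor an array annotation. Probe set genes came from the platform annotation; symbols were updated through RefSeq (GRCh38.p14). Probe sets with 1 symbol and a mean over 12 arrays above 2.04, the median of all 1411399, were kept; a gene is their mean, with at least 3. Limma 3.58.1 (R 4.3.3; lmFit, eBayes) was fitted to 16883 genes and 4 group means, with Benjamini-Hochberg adjustment at 0.05, and tested on simulated data. The estimated prior gave every gene the common SD. RMA equalises array distributions, which can hide a change shared by most RNAs.

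The members and lists were chosen with earlier results of these data known. Every member may be named. Values by array follow a rule: per contrast, up to 6 called members with the smallest p, and the mineral genes; other arrays' values were added after they were seen. Other lists name up to 3 called genes per contrast. The title of the induced Xrn1 array taken as replicate 1 carries replicate number 2, as another array's does. Alternatives were the median of probe sets, no or a stricter dim filter, 1 probe set per gene, centring, cyclic loess, a trended robust prior, each gene's own spread, only the groups compared, replicate blocks, a fold of 1.5, leaving out each array or both arrays of sample number 5, and the 99th percentile bound.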

Additional observations from a re-analysis of the deposited data

Results flagged for a closer look

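For 10 genes the test of the difference between the Xrn1 effects, induced minus uninduced, passed on the deposited scale. SPP1 was at -1.70, TIMP3 at 1.54, TIMP1 at 1.53, MMP2 at 1.5, TNC at 1.34, COL6A2 at 1.34, COL6A1 at 1.26, DCN at 1.26, MMP14 at 1.25 and COL5A1 at 1.25. SPP1 and DCN were silent on these arrays, with 5 and 3 kept probe sets. For COL6A1, COL6A2 and COL5A1 the uninduced changes were -0.04, -0.01 and 0.05 as deposited, none of which passed, but 1.06, 0.97 and 0.77 after cyclic loess, which all passed. None of the 9 positive differences passed after cyclic loess. The groups have 3 arrays each, so single arrays were not tested for standing apart.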

How the results depend on the processing

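The counts for Xrn1 in uninduced cells were 21 lower and 3 higher, in induced cells 11 and 4, averaged 21 and 5, and for the difference 1 and 9. Cyclic loess gave 10 and 10, 8 and 7, 10 and 9, and 2 and 0. Centring on the median gene gave 19 lower and 8 higher in uninduced cells, 14 and 4 in induced cells, 21 and 10 on average, and 3 and 0 for the difference. With each gene's own spread, 5 were lower and 1 higher in induced cells, 2 higher on average, and 0 and 0 for the difference. In uninduced cells LAMB1, PLOD2 and SPP1 were among the genes that did not pass with their own spread. Without both arrays of sample number 5 none was higher in uninduced cells, and the difference had 0 and 0. The difference also had 0 lower and 5 higher with the median of probe sets, 3 lower with no dim filter, 0 and 3 above the upper quartile, and 3 higher with 1 probe set per gene. A fit of the Xrn1 groups alone gave 2 higher with induction. The same-numbered samples did not deviate together (correlations -0.71 to 0.13), so the numbers were not taken to pair them. The replicate block gave 5 higher for the difference, and the sample number as replicate block gave 0 and 0 for it and 3 higher on average. Leaving out each array gave 18 to 23 lower and 1 to 5 higher in uninduced cells, 9 to 13 and 2 to 5 in induced cells, 18 to 21 and 1 to 5 on average, 0 to 12 and 0 to 2 for induction without Xrn1, and 0 to 2 and 0 to 15 for the difference. Averages were higher for 1 to 3 genes without induced untreated replicate 2, any induced Xrn1 array, uninduced untreated replicate 1 or uninduced Xrn1 replicate 3. For most of these fits the shares of all genes are not given, so the counts cannot be read as particular to the matrix genes. The cause of these changes was not tested. No result with a test changed its direction past the threshold. Dim genes lie near the background of these arrays, which limits what can be read from the silent ones.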
